A study of Arabidopsis thaliana with 6 samples.

Results

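The B-box zinc finger genes of Arabidopsis thaliana were followed in whole seedlings of a wild type (WT, 3 libraries) and of a mutant of DME (genotype labelled dme/-, 3 libraries), both of the Ler accession and both sampled at 7 days after germination. DME encodes a DNA glycosylase that excises methylated cytosine, so that the comparison asks which transcripts change when it is mutated. The mutant allele, how the mutant seedlings were selected and the hour of harvest are not stated in the sources used here. Nor do the labels tell whether libraries of 1 genotype were separate cultures, and the spread behind the p-values may be technical. Members were all rows of the authors' deposited table whose description contains the text B-box, which gave 10 genes among 5322 rows, or 5311 measurements once repeated rows were counted once. All 10 are among the 32 genes of the BBX family by locus code, and 4 further listed genes of that family lack the text.

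B-box (BBX) proteins carry zinc-binding B-box domains near the N-terminus, through which they bind other proteins and, in some cases, DNA. The family is sorted into structural groups by the number of B-boxes and by the presence of a CCT domain near the C-terminus, a domain named after CONSTANS (CO), CONSTANS-like (COL) and TOC1 proteins. In seedlings the family is best known for light responses, in which different members promote or restrain photomorphogenesis together with the bZIP factor HY5 and the ubiquitin ligase COP1, and for the photoperiodic control of flowering through CO.

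The table holds 1 summary per gene: the mean normalized count of the 6 libraries, the fold change of dme over WT and an adjusted p, all from the authors. It has no value per library and keeps only genes that changed 2-fold or more with an adjusted p under 0.05, so sequencing depth and the values of single seedling libraries cannot be shown here. For each gene a genotype mean was therefore implied from the mean and the fold, and an upper limit of the standard error of the log2 fold change was taken from its adjusted p. Genes outside the table, called not listed here, may have been untested, changed by less or missed the limit on p. For DME itself the authors' deposited table gave a log2 fold change of -1.55 (adjusted p 4.88e-17), or 34.1% of the WT level.

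Of the 10 B-box genes, 9 were lower in dme (BBX12, BBX14, BBX15, BBX18, BBX19, BBX27, BBX28, BBX30 and BBX31) and 1 was higher (BBX32). Over all measurements of the authors' deposited table the proportion was the other way round, with 27.2% lower and 72.8% higher. Both splits rest on the authors' scaling of the libraries, which is not stated: with 0.5 added to all log2 fold changes, as an arithmetic example, 4 of the 9 stayed past 2-fold lower. The median log2 fold change of the 9 lower members was -1.44 (from -2.24 to -1.03), close to the -1.41 of all 1444 lower measurements, and 5 of the 9 fell by more than that median. The falls thus were of a usual size for this table, and it was their direction that differed from most listed genes. Mean normalized counts of the 10 ranged from 32.01 to 8346 with a median of 581.0, against 204.3 for all measurements, and 8 of the 10 lay above that value. The lower measurements alone had a higher median, 311.5, so part of this difference goes with direction.

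**Figure D1:**
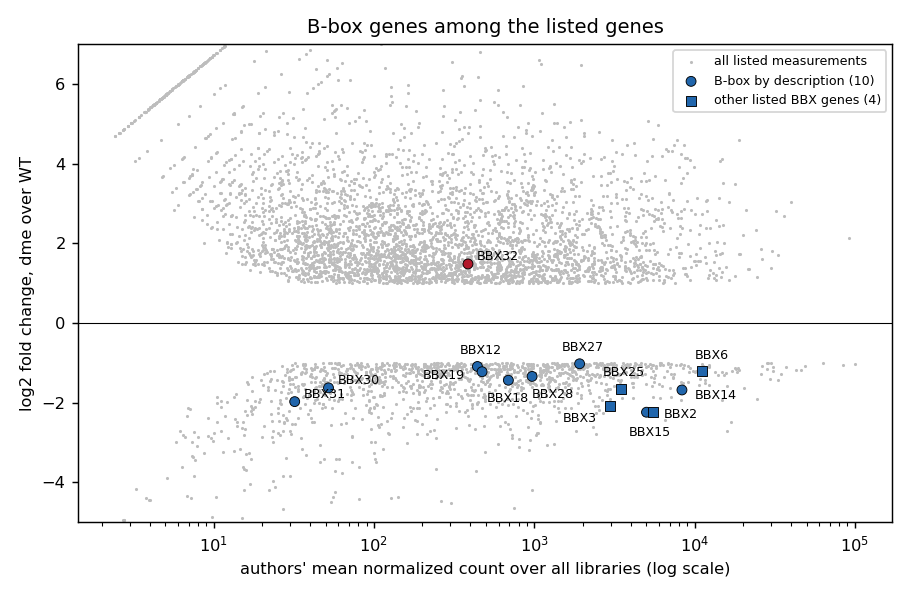
Log2 fold change (dme over WT) against the authors' mean normalized count (log scale) for all listed measurements (grey) and the listed BBX genes (circles: described as B-box, squares: the other 4; blue lower, red higher). The empty band around 0 is the 2-fold threshold of the table, and 89 measurements above 7 and 66 below -5 lie outside the axis; BBX32 is the 1 BBX gene above 0.

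BBX14 and BBX15 (also COL16) belong to group 3, whose members have a CCT domain. The related BBX16 (also COL7) has been described as a target of the chloroplast regulator GLK1, but it was not listed here. BBX15 (AT1G25440) fell by 2.24 on the log2 scale in the authors' deposited table, a 4.73-fold lower level with adjusted p 2.31e-121 and a standard error of at most 0.0957. By adjusted p it ranked 11 of the 1444 lower measurements. Its implied mean was 8281 normalized counts in WT and 1751 in dme. BBX14 (AT1G68520) fell by 1.68 in the authors' deposited table (adjusted p 5.02e-73, standard error at most 0.0931). Its implied mean was 12729 normalized counts in WT and 3963 in dme. These were the most abundant of the 10 transcripts per length too: the implied WT means per kb of exon were 4864 for BBX14 and 4768 for BBX15, and BBX27, the next, stood at 1351. The implied WT and dme means of the 10 summed to 27580 and 9068 normalized counts, and the BBX14 and BBX15 pair made up 76.2% of the WT sum. That sum leaves out the 4 listed BBX genes outside the description rule, of which BBX6 alone had an implied WT mean of 15631. It also leaves out the family genes that were not listed.

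The coding sequences of BBX14 and BBX15 were 68.8% identical in nucleotides, and each was the other's closest relative in the family, so both members of a paralogous pair fell. Their upstream sequences are shown because the pair also shared a stretch there. The 250 bases before each annotated gene start were read from the RefSeq assembly TAIR10.1, on the minus strand of chromosome 1 at chr1:25710990-25711239 for BBX14 and chr1:8935545-8935794 for BBX15. Capitals mark runs of at least 10 bases found in both.
BBX14: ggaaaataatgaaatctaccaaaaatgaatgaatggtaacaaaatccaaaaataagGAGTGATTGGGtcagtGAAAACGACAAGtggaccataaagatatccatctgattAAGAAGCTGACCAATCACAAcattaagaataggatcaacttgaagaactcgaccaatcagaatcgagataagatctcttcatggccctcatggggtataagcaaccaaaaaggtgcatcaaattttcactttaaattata
BBX15: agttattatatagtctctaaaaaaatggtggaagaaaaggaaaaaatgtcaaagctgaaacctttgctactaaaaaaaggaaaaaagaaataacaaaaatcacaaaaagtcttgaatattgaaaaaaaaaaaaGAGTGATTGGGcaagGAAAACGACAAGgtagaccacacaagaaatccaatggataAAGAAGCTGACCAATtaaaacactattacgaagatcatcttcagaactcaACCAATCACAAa

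In both promoters 3 of these runs stood in the same order, with spacings that differed by at most 2 bases. GAGTGATTGGG began at position -194 in BBX14 and -117 in BBX15, counted from the gene start, GAAAACGACAAG at -178 and -102, and AAGAAGCTGACCAAT at -140 and -62. Of the 27443 promoter windows of protein-coding genes, 5 held the first run on the gene strand, 3 the second and 2 the third. From the first to the end of the third run the stretch was 69 bases long in BBX14 and 70 in BBX15, with 83.1% identity. This block was bounded by the shared runs themselves, and it lies at different distances from the 2 gene starts. Over the full 250 bases, aligned end to end, the pair was 41.6% identical, the lowest of the 91 pairs of listed BBX genes, the others lying between 42.6% and 52.9%. Among the 90 other pairs of listed BBX genes, 13 shared a run of at least 10 bases with 3 or more kinds of base, and 0 shared more than 1 such run at the same spacing. The stretch holds CCAAT, the letters bound by NF-Y factors, on either strand. BBX14 had 3 CCAAT matches in its 250 bases and BBX15 had 4, whereas 3.20% of all windows held 3 or more and 0.674% held 4 or more. A count of 3 was not particular to the pair, since BBX12 had 3 as well, and of the other members BBX28 and BBX30 had 1 each and BBX18, BBX19, BBX27, BBX31 and BBX32 had 0. Both the runs and CCAAT were looked for after the sequences had been seen, and a match is a description of letters, not of binding.

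BBX18 and BBX19 belong to group 4, which lacks a CCT domain. Both restrain photomorphogenesis, and BBX19 also binds CO and delays flowering. BBX18 (AT2G21320) fell by 1.44 in the authors' deposited table (adjusted p 9.41e-11, standard error at most 0.222), from an implied 1007 to 371.5 normalized counts. BBX19 (AT4G38960) fell by 1.23 in the authors' deposited table (adjusted p 2.27e-10, standard error at most 0.193), from 662.0 to 283.1. They too were each other's closest relative, at 59.3% identity of the coding sequence.

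BBX12 (AT2G33500, also COL14) was the 1 listed gene of group 2, a group with a CCT domain. It fell by 1.09 in the authors' deposited table (adjusted p 6.99e-13, standard error at most 0.152), from an implied 601.9 to 281.9 normalized counts. Its closest relative, COL15 (67.6% identity), was not listed.

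The other 5 members belong to group 5, which has no CCT domain and fewer B-boxes than the other CCT-less group. BBX28 (AT4G27310), which binds HY5 and weakens its activity, fell by 1.34 in the authors' deposited table (adjusted p 4.35e-15, standard error at most 0.171). Its implied mean was 1391 normalized counts in WT and 548.3 in dme. The closest relative of BBX28, BBX29 (59.1% identity), was not listed. BBX27 (AT1G68190) had the smallest fall: it fell by 1.03 on the log2 scale in the authors' deposited table (adjusted p 2.55e-11, standard error at most 0.154), from 2574 to 1264. Its value lies just inside the 2-fold threshold.

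BBX30 (AT4G15248, also miP1b) and BBX31 (AT3G21890, also miP1a) encode microproteins, small B-box proteins that tie CO to the corepressor TOPLESS and delay flowering. They were the lowest of the members, with coding lengths of 354 and 366 bases. BBX30 had an implied mean of 78.6 normalized counts in WT and 25.4 in dme, and BBX31 one of 51.0 in WT and 12.98 in dme. For these genes the authors' deposited table gave log2 fold changes of -1.63 and -1.98, with adjusted p 0.0221 and 0.0235. The standard errors, at most 0.712 and 0.872, allow a wide range for the size of both falls. Their coding sequences were 70.5% identical, so another close pair fell together.

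BBX32 (AT3G21150, also EIP6) was the exception. Its protein binds BBX21 and restrains light responses, and with COL3 it delays flowering. It rose by 1.48 on the log2 scale in the authors' deposited table, a 2.79-fold higher level (adjusted p 0.000994, standard error at most 0.449). Its implied mean was 203.7 normalized counts in WT and 568.0 in dme. Per kb of exon it stood at 158.8 in WT, between BBX30 (122.5) and BBX12 (357.0), and at 442.7 in dme, where only BBX14, BBX15 and BBX27 of the 10 were higher. Its known partners BBX21 and COL3 were not listed.

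**Figure D2:**
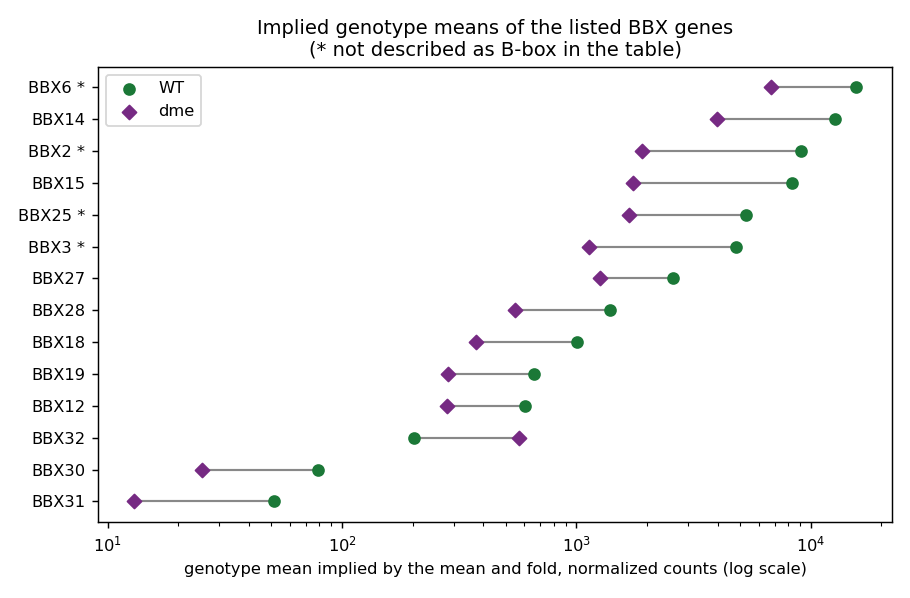
Implied mean normalized counts (log scale) in WT (circles) and dme (diamonds) for the 14 listed BBX genes, ordered by the WT value; the table gives no value per library, so no error is drawn. BBX32 is the 1 gene whose dme mean lies to the right of its WT mean, and BBX30 and BBX31 are the lowest.

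Across members the implied WT mean per kb of exon spanned 104.9-fold, from 46.4 for BBX31 to 4864 for BBX14, and falls were seen from the top to the bottom of that range. The promoters of BBX28 and BBX30 are shown because they were the 2 members with a light- or clock-related motif of more than 5 bases before the gene start. Both lie on the plus strand of chromosome 4 in TAIR10.1, at chr4:13675287-13675536 and chr4:8708591-8708840. Capitals mark AAAAATCT, the binding site of the clock factor CCA1, on either strand in BBX28, and the G-box CACGTG in BBX30.
BBX28: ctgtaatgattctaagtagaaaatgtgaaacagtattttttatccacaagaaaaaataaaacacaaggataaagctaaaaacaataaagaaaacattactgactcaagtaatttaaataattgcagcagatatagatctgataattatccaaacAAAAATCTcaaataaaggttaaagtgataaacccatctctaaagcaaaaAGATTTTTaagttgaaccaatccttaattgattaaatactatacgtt
BBX30: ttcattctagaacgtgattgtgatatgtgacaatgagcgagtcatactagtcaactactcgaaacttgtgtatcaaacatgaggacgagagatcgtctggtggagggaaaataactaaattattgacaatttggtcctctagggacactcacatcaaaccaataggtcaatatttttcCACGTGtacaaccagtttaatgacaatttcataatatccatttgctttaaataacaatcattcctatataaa

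Motifs were counted on both strands in windows from 250 bases before to 50 bases after the gene start. The G-box was in 1 of 10 members and in 7.68% of all windows, and the CCA1-binding site in 1 of 10 and 7.88%. The evening element AAAATATCT was in 1 of 10 (BBX12, within the 50 bases after the start) and 2.82% of all windows. CCACA, found in the element that CO binds, was in 5 of 10 members and 33.6% of all windows. ACGT, the core of HY5 sites, which the G-box includes, was in 5 of 10 and 49.9%. None of these 5 motifs was shared by more than 5 of the members.

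The description rule does not reach the whole family. Of the 32 BBX genes known by locus code, 14 were listed, which is 43.8%, against 18.6% of the 27444 annotated nuclear protein-coding genes, some of which may not have been tested. By direction, 13 (40.6%) were lower against 4.86% of the annotated genes, and 1 was higher against 13.7%. The 4 listed genes that the description left out were all lower. BBX2 (COL1) fell by 2.24 in the authors' deposited table (adjusted p 7.99e-68) and BBX3 (COL2) fell by 2.09 (adjusted p 1.20e-28); both are close relatives of CO. BBX6 (COL5) fell by 1.22 in the authors' deposited table (adjusted p 1.25e-41), from an implied 15631 normalized counts in WT, the most of any listed BBX gene. BBX25 (STH), which binds COP1 and restrains HY5 output, fell by 1.66 in the authors' deposited table (adjusted p 2.75e-21).

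Listed genes were found in every structural group. They made up 3 of 6 genes in group 1, 1 of 7 in group 2, 2 of 4 in group 3, 3 of 8 in group 4 and 5 of 7 in group 5. BBX21 and BBX22, which promote photomorphogenesis, and BBX24, which restrains it, were not listed, nor was CO. BBX24 is the closest relative of BBX25, at 73.8% identity of the coding sequence, and CO that of BBX2, at 75.3%. No pair in the family was closer than CO and BBX2.

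**Figure D3:**
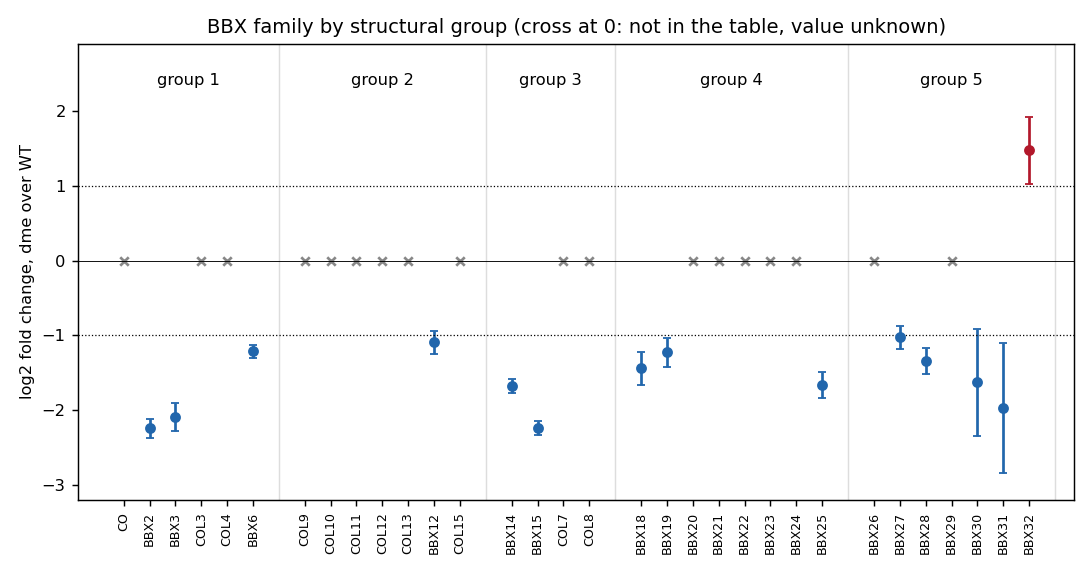
Log2 fold change (dme over WT) of the 32 BBX genes by structural group; bars are the upper limit of the standard error, crosses at 0 mark genes outside the table, whose value is unknown, and dotted lines mark 2-fold. Listed genes occur in all 5 groups, and BBX32 is the 1 listed gene above 0.

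Some of these genes overlap others in the annotation, and whether reads were counted by strand is not given. Of the 10 members, BBX12 overlaps AT2G33490 by 192 bases and BBX14 overlaps AT1G68510 by 329 bases, both on the opposite strand, and BBX32 overlaps AT3G21140 by 13 bases on the same strand. None of these 3 neighbours was listed. Of the further family genes, BBX2 lies over the antisense noncoding gene AT5G15845, which overlaps it by 1807 bases and stood at -2.03 in the authors' deposited table, and without counting by strand reads of the pair could not be told apart. BBX3 is overlapped on the opposite strand by AT3G02370 (771 bases) and AT3G02390 (688 bases), neither of them listed. BBX25 overlaps by 48 bases a gene that was higher, AT2G31390, with a log2 fold change of 2.797 (the authors' deposited table). The 10 members are flanked by 40 protein-coding genes, 2 on each side. Of these, 8 (20.0%) were listed in either direction, near the 18.6% of all annotated genes. Most of the 8 were lower, namely 2 of 2 beside BBX14, 1 of 3 beside BBX15, and 1 of 1 beside each of BBX12, BBX28 and BBX31. Of all annotated genes, 4.86% were lower and 13.7% higher.

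Genes that act with BBX proteins were described by lists of pathway genes, with the direction of the listed members beside the 27.2% lower and 72.8% higher of all measurements. Of annotated nuclear protein-coding genes, some perhaps not tested, 18.6% were listed, 4.86% as lower and 13.7% as higher. Of 32 light-signalling genes, 10 (31.2%) were listed, 8 lower and 2 higher, with a median of -1.24 against 1.59 for all measurements. HFR1, a bHLH factor that restrains shade responses, fell by 2.81, and the blue-light receptor gene CRY1 fell by 1.03 in the authors' deposited table. PIF4, a bHLH factor of elongation growth, fell by 1.04 and RUP1, which restrains UV-B signalling, fell by 1.67 in the authors' deposited table. The 2 higher were FAR1 (1.76), which acts in phytochrome A signalling, and LAF1 (3.20) in the authors' deposited table. HY5 and COP1, the main partners of BBX proteins, were not listed, nor was any phytochrome gene.

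Flavonoid genes act downstream of HY5 and several BBX proteins. Of 18 genes, 12 were not listed, 5 were higher and 1 lower, with a median of 1.65. Among listed genes, the split and median were near those of all measurements, whose median was 1.59. The listed share of 33.3% lay above the 18.6% of annotated genes. CHS, the entry enzyme of flavonoid synthesis, rose by 1.66 and FLS1, the flavonol synthase, by 1.64 in the authors' deposited table. MYB12, an activator of both, rose by 1.87 in the authors' deposited table. MYB111 (1.06, adjusted p 0.0213) and GL3 (3.07, adjusted p 0.0427) were the further higher genes in the authors' deposited table, GL3 at a mean of 9.54 normalized counts. The 1 lower gene was MYBL2, a repressor of anthocyanin synthesis, which fell by 2.13 in the authors' deposited table (adjusted p 1.19e-122). The anthocyanin genes DFR, LDOX and MYB75 were not listed.

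In the photoperiod pathway around CO, 6 of 16 genes (37.5%) were lower and 0 higher, with a median of -1.36. The shares over annotated genes were 4.86% lower and 13.7% higher. The CYCLING DOF FACTOR genes, which repress CO transcription, made up 4 of the 6: the authors' deposited table gave log2 fold changes of -2.70 for CDF5, -2.48 for CDF3, -1.59 for CDF1 and -1.13 for CDF2. The other 2 were NF-YB2 (-1.05) and NF-YB3 (-1.01), subunits of the CCAAT-binding complex that CO joins, in the authors' deposited table. CO and its target FT were not listed. Of 19 clock genes, 9 (47.4%) were listed, against 18.6% of annotated genes, 8 lower and 1 higher, with a median of -1.26. The authors' deposited table gave log2 fold changes of -1.91 for RVE7, -2.44 for RVE1, -1.004 for ZTL and -1.31 for LHY, while the evening gene ELF4 stood at 1.95. Several BBX genes cycle with the day, and since the harvest hour is unknown, whether time of day moved with genotype was not tested.

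**Figure D4:**
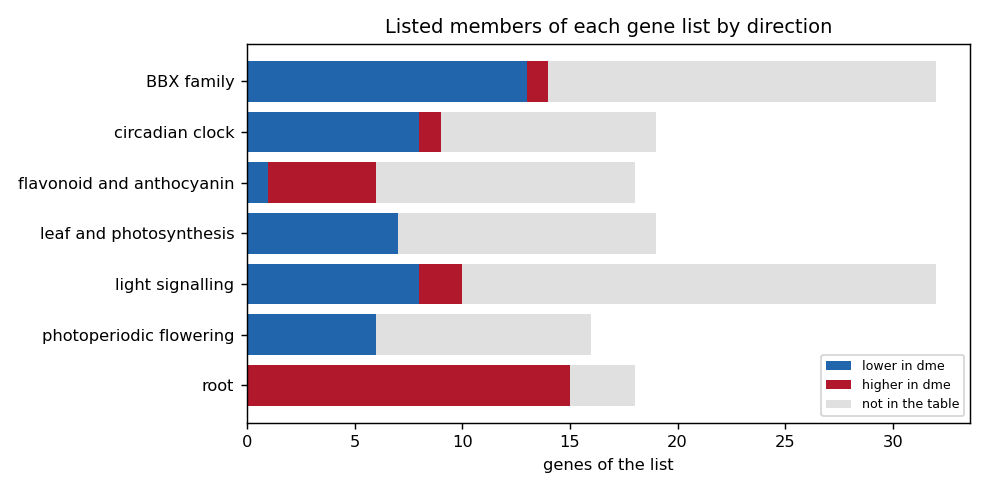
Genes of each list that were lower (blue) or higher (red) in dme or not in the table (grey). The BBX, clock, light-signalling, photoperiod and leaf lists were mainly or wholly lower among their listed genes, and the flavonoid and root lists mainly or wholly higher.

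Tissue markers moved with the genotype as well. Of 19 leaf and photosynthesis genes, 7 were listed, all lower, and their log2 values in the authors' deposited table ran from -2.15 to -1.11. They include GLK1 (-1.34) and GLK2 (-2.15) in the authors' deposited table, which regulate chloroplast development, while none of the 4 RBCS genes on the list was. Of 18 root markers, 15 were listed, all higher, from 1.60 to 6.59 in the authors' deposited table. CASP5, SCR and NRT2.1 were the root markers not listed. The listed shares were 36.8% for the leaf list and 83.3% for the root list. Of annotated nuclear protein-coding genes, 18.6% were listed, 4.86% as lower and 13.7% as higher. In whole seedlings, fewer cells of a type and less RNA per cell cannot be told apart, and the part of organ makeup in the lower BBX transcripts was not tested.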

How the data were processed

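RNA of whole seedlings, 3 WT and 3 dme libraries by their titles, was extracted with a plant RNA kit and made into libraries at a sequencing company, per the labels. Per the submitters' processing notes, StringTie 2.1.3, HISAT2 2.1.0 and Trimmomatic 0.36 were used with the build TAIR10. Which differential test and adjustment were used, and whether strand was, is not stated in those sources. The authors deposited 1 table, with 0 columns of per-sample values. Per the file headers it holds a mean normalized count (a signal the authors scaled in an unstated way), a log2 fold change, the linear fold and an adjusted p-value. The table's title was taken to mean dme relative to WT. All 5322 rows have an absolute log2 fold change of at least 1.000 and an adjusted p of at most 0.0498; 11 pairs of rows with identical values were counted once. Depth per library is unknown, and the planned fits per library were not run.

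Genotype means were implied from the mean and fold, assuming a mean over 3 and 3 libraries. The standard error limit divides the size of the log2 fold change by the normal quantile for its adjusted p and assumes a Wald test. Both steps and the motif search were checked on made data. RefSeq TAIR10.1, whose nuclear chromosomes are those of TAIR10, gave exon lengths, coding sequences (transcript of the longest coding length) and promoters; all 32 family codes matched. Identity is matches over all columns of a global alignment, gaps included. No set test was run. Members and lists were chosen with earlier results of these data known. All members are named, and of each pathway list up to 4 genes with the smallest adjusted p; other genes were named after their values were seen. Python 3.11.15, numpy 2.4.6, pandas 2.3.3, scipy 1.17.1, matplotlib 3.10.9 and Biopython 1.88 were used. Alternatives were a stricter adjusted p or fold, a minimum mean, repeated rows counted, shifted log2 fold changes, members by locus code and a shorter promoter window.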

Additional observations from a re-analysis of the deposited data

How the results depend on the processing

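No paired analysis was possible because the deposited table has no values per library; for the same reason no library could be left out, and no other scaling, filter or test could be fitted. The 9 lower members and 1 higher member came to 7 and 1 at an adjusted p under 0.01, which BBX30 and BBX31 miss, and to 8 and 1 at a mean normalized count of at least 50, which BBX31 misses. At 4-fold, fewer by construction, 1 member was lower (BBX15) and 0 higher, and 3 family genes were listed. With all log2 fold changes shifted by 0.5 or 1, as arithmetic examples of another scaling, 4 and 1 lower members still passed 2-fold. Of the family genes in either direction, 8 and 4 passed, counts that include the higher BBX32. With shifts of -0.5 or -1 all 9 lower members passed, by construction, and the higher member did not (0 and 0), since BBX32 then lay under 2-fold. Genes that a shift would bring into the table are unknown. Choosing members by family locus codes gave 13 lower and 1 higher. In the 250 bases before the start alone, the evening element was in 0 members in place of 1. The depth is unknown; the limits on the standard error were widest for BBX30 and BBX31, the members with the lowest means.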
